A study of Mus musculus with 7 samples.

Results

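The 60 genes described here encode the machinery of cell division: the cyclins and kinases that start mitosis, the spindle checkpoint, the motor proteins of the spindle, the kinetochore and the condensin complex. They were listed by name from their known roles, and all 60 were found among the 35727 genes of the counts table. Each was matched from its Ensembl identifier to its mouse symbol. The libraries were polyA RNA-seq of mouse undifferentiated pleomorphic sarcoma cells, sorted from tumours by their red fluorescent protein. There were 4 libraries labelled p53 KO Ccne1 OE and 3 labelled p53 KO Vgll3 OE. Both lines began as mesenchymal stem cells of female p53 knockout C57/Bl6 mice, so the knockout is shared by every library. Retroviral transduction added Ccne1, the gene of cyclin E1, to one line and Vgll3, which encodes a cofactor of TEAD transcription factors, to the other. The cells were passaged through subcutaneous tumours in wild-type females, and were transplanted once more before sorting. The labels do not say whether a line is 1 clone, which promoter drives the vector, what age or genotype the last recipients had, or whether each library is a separate tumour. The p-values below therefore set differences between the lines only against the spread among these libraries. Part of that spread may be technical. Effects of the transduced gene and of anything else that distinguishes the lines cannot be told apart.

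Mitotic genes are transcribed in waves. In resting cells and G1 the DREAM complex holds many of them silent, and in S and G2 the MuvB core joins B-MYB and FOXM1 to switch them on, through a short promoter element called the cell cycle genes homology region (CHR) and through CCAAT boxes bound by NF-Y. Their proteins then condense the chromosomes, build the spindle, attach each kinetochore to microtubules and hold back the anaphase-promoting complex until attachment is complete. In tumours the summed level of such mRNAs is widely used as a measure of proliferation. In bulk RNA, fewer dividing cells and less mRNA per dividing cell cannot be told apart.

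The promoters come first, since these short elements are what many mitotic genes are known to share. RefSeq promoter windows (GRCm38.p6, from 250 bases before to 50 bases after the start of the gene) were matched by symbol for 51 of the 60 genes, with 57 windows in all; Foxm1, Smc4, Aurkb, Kif20a, Incenp, Spc24, Ccna2, Cdc25c and Tpx2 were not matched. The letters TTTGAA, the commonest form of the CHR, stood on either strand in 36 of the 57 windows (63.2%), against 17.9% of all 32851 windows in the table. The letters CCAAT stood on either strand in 44 of the 57 windows (77.2%), against 37.4% of all windows. Both were found in 30 windows (52.6%, against 6.95%). The windows were not matched for base composition, and a match is a run of letters, not a measured binding site. The 60 genes were not alone in this. Among 55 windows of other mitotic genes, none of them members, 60% held CCAAT, 49.1% held TTTGAA and 32.7% held both. Among the windows of G1/S and replication genes, 71.4% held CCAAT and 10.7% held TTTGAA. The variant TTCGAA was in 6 member windows (10.5%, against 1.56%), and TTTAAA in 10 (17.5%, against 13.2%).

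**Figure D1:**
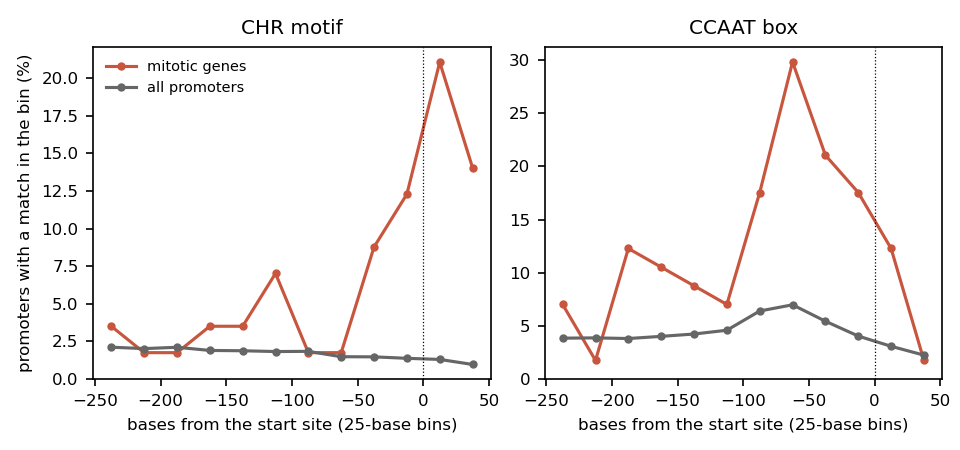
Share of promoter windows (%) with a match to TTTGAA (left) or CCAAT (right), on either strand, in 25-base bins of distance from the start site, for the 57 windows of mitotic genes (red) and all 32851 windows (grey). In the mitotic genes TTTGAA is most frequent just after the start and CCAAT between 50 and 75 bases before it, while the grey lines stay at or below 6.99%.

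The matches lay close to the start of the gene. From 100 bases before the start onward, 32 of the 57 windows held TTTGAA (56.1%, against 8.01% of all windows). Below are 4 genes that were higher in the Vgll3-labelled libraries, printed because each has a CCAAT box upstream of a TTTGAA. Each stretch runs 5′ to 3′ along the gene's strand from 150 bases before to 20 bases after the start, and capitals mark TTTGAA and CCAAT or their reverse complements. The positions are chr4:118437324-118437493, minus strand, for Cdc20; chr9:70421535-70421704, minus strand, for Ccnb2; chr10:69352893-69353062, minus strand, for Cdk1; and chr19:37376232-37376401, plus strand, for Kif11.
Cdc20: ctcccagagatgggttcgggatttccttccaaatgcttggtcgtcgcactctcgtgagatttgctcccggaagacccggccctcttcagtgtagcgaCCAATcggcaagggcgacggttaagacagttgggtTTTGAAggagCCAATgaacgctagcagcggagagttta
Ccnb2: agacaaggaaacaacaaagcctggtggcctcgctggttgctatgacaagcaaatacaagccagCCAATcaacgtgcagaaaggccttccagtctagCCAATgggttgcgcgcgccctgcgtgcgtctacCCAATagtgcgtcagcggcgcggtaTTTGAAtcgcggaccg
Cdk1: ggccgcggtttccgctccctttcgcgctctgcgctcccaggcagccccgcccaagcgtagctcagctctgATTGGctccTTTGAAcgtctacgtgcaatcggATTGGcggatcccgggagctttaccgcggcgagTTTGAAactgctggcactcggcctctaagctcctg
Kif11: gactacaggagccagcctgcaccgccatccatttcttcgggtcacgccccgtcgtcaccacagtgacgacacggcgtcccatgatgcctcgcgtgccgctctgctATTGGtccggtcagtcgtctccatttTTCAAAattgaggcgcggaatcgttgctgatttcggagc

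The next 4 are genes that were not higher, printed because 3 of them carry the same letters. Bub3 (chr7:131560220-131560389, plus strand), Ube2c (chr2:164769779-164769948, plus strand) and Ect2 (chr3:27153859-27154028, minus strand) hold both motifs, and Pttg1 (chr11:43425962-43426131, minus strand) holds neither in its window. Bub3 and Ect2 have 2 windows each in the table, and 1 of them is shown. The window of Pttg1 ends at position 43426231, short of the gene's outermost annotated start at 43426251. The bases around that start were therefore not searched.
Bub3: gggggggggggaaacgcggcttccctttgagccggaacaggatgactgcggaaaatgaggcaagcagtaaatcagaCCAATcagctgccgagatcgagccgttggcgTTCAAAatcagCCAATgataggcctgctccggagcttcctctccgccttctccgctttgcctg
Ube2c: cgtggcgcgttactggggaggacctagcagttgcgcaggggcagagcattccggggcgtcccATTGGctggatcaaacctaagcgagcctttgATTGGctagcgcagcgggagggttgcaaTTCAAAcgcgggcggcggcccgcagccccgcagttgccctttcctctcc
Ect2: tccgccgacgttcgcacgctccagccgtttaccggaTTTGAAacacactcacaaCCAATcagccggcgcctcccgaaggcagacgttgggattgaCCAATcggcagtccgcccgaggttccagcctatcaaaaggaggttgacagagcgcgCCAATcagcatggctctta
Pttg1: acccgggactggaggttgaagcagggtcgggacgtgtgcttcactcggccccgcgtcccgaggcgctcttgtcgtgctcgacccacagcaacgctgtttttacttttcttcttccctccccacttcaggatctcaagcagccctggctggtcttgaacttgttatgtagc
Of the 33 genes with TTTGAA in a window, 28 were called higher and 5 were not called, with a median log2 fold change of 1.03. Of the 18 without it, 17 were higher and 1 was lower, with a median of 0.89. The 5 genes that were not called (Bub3, Ube2c, Anln, Ect2 and Cenpa) thus all had the letters in their 300-base windows, as did 28 of the genes that were higher. Among all 60 genes 90% were called higher, with or without a window, against 25.1% of all tested genes.

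Most mitotic mRNAs were more abundant in Vgll3-labelled than in Ccne1-labelled libraries, in every part of the machinery. The median log2 change of the 11 role groups lay between 0.86 for the cyclins, CDK1 and CDC25 and 1.18 for the outer kinetochore. Of 60 genes, 54 passed an edgeR adjusted p of 0.05 as higher and 1 as lower, and 5 were not called. All 60 had passed the filter on low counts. Across all 13740 tested genes the same test called 51.9%, 25.1% as higher and 26.8% as lower. The counts of each role group below stand beside these same shares. The median log2 fold change, Vgll3-labelled over Ccne1-labelled, was 1.02 for the 60 genes (quartiles 0.81 to 1.20) and 0.01 for all tested genes. At least 2-fold higher were 31 of the 60, against 9.2% of tested genes that were called and at least 2-fold higher. The libraries of the models did not overlap for 54 genes with every Vgll3-labelled library above (26.8% of tested genes) and 1 gene with every one below (29.0%). The genes were chosen with earlier results of these data known, so these counts describe the list and do not test it.

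**Figure D2:**
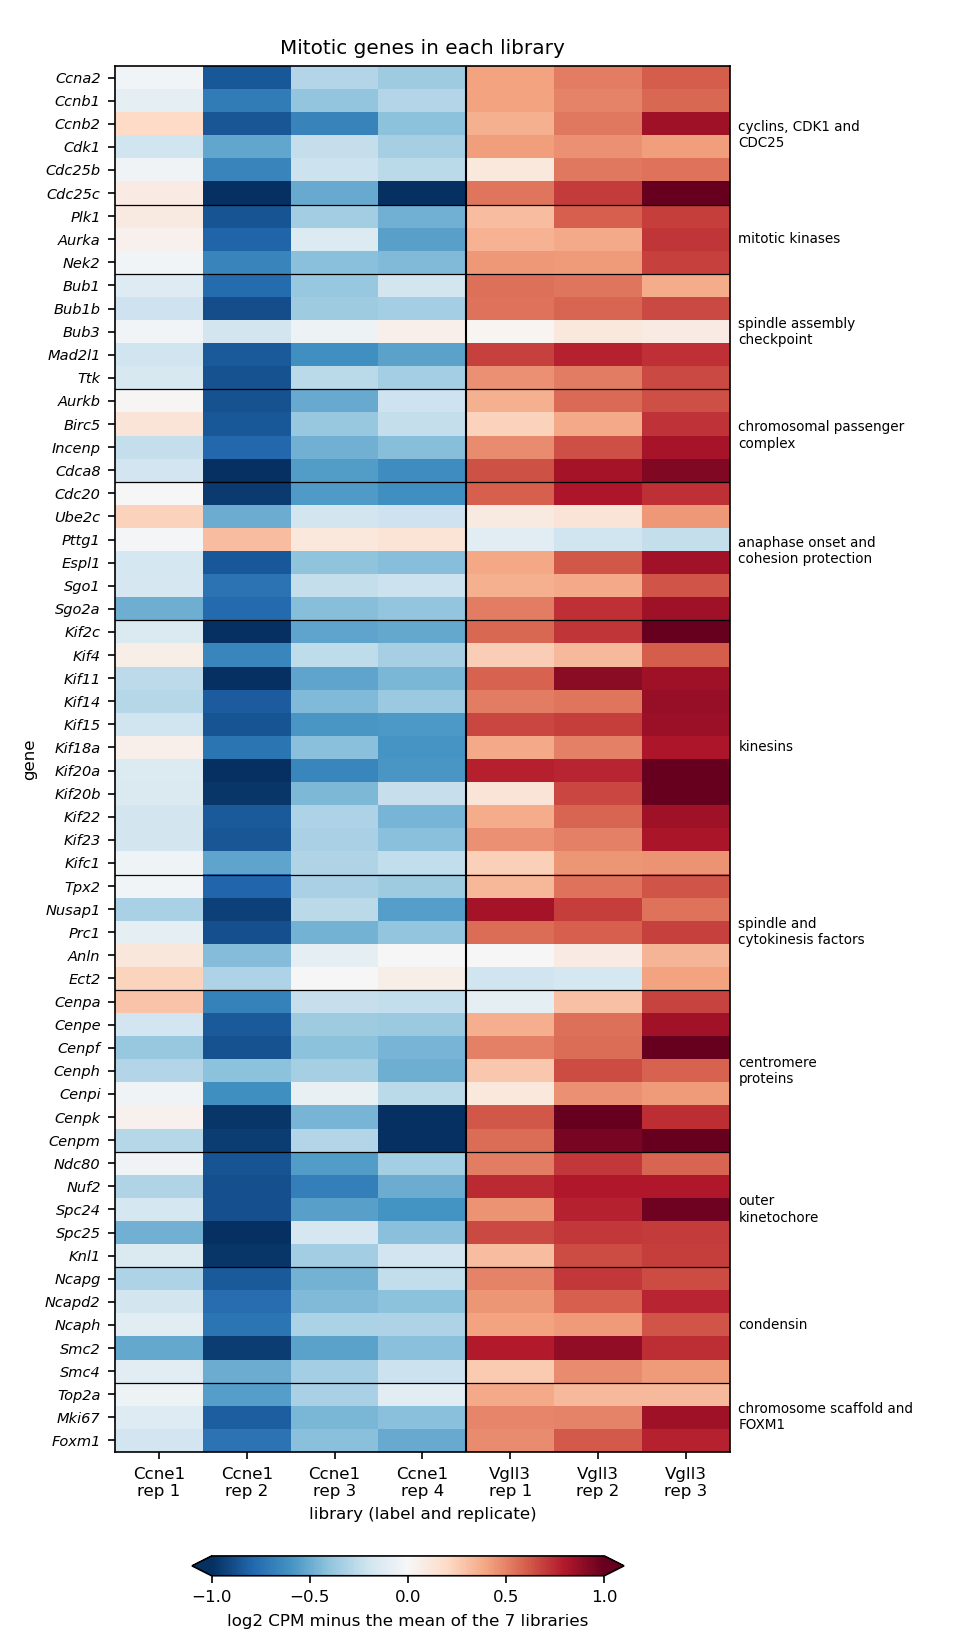
Level of each of the 60 mitotic genes (rows, grouped by role) in each of the 7 libraries (columns), as log2 CPM (the gene's counts relative to its library's TMM-scaled total) minus the gene's mean over the 7 libraries, with red above and blue below that mean and the darkest shades for values past 1. Most rows are blue or pale in the 4 Ccne1-labelled columns and red in the 3 Vgll3-labelled columns, with Ccne1 replicate 2 the darkest blue in most rows; Pttg1 runs the other way.

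Library totals ranged from 21725890 to 53610300 counts. Ccne1 overlapped between the models, at 6.73, 9.24, 18.3 and 16.7 CPM in Ccne1 replicates 1 to 4 and 12.7, 15.1 and 17.0 CPM in Vgll3 replicates 1 to 3 (edgeR-adjusted p = 0.609). Whether these counts include a transcript made from the vector is not given in the sources used here, so they do not settle the label, and the groups are called by their labels throughout. Vgll3 was 50.7 ± 8.57 and 252 ± 34.6 CPM (mean ± SD, n = 4 and 3, 4.96-fold, a log2 change of 2.31 with SE 0.15, adjusted p = 1.20e-05 by edgeR), and Trp53, the gene of p53, was 66.4 ± 2.69 and 70.7 ± 4.32 CPM (adjusted p = 0.298). Which allele or which cells the Trp53 counts come from was not tested, so they do not settle the knockout either. Of 10 mesenchymal markers, 9 were above 100 CPM in each library and Thy1 was under 10 CPM in each. Fn1 had the highest mean over all 7 libraries, with Vim above it in each Ccne1-labelled library and Col1a2 or Col3a1 in each Vgll3-labelled one. In the Vgll3-labelled libraries Vim was 3.19-fold lower (edgeR-adjusted p = 1.03e-05) and Col1a2 4.12-fold higher (adjusted p = 9.98e-06). The epithelial markers, of which Krt5 was at 0 in every library, summed to 2.07 to 4.81 CPM in the Ccne1-labelled and 0.151 to 1.00 CPM in the Vgll3-labelled libraries. Krt8 had the highest mean of them and was called lower (2.31 ± 1.08 and 0.111 ± 0.0665 CPM, edgeR-adjusted p = 0.000291). Within each model the libraries differed in their mitotic level. Of the 60 genes, 56 were lowest in Ccne1 replicate 2 among the Ccne1-labelled libraries and 53 highest in replicate 1. Among the Vgll3-labelled libraries 53 were lowest in replicate 1 and 43 highest in replicate 3. The sum of the 60 genes was 2250.4, 1464, 1873 and 1929 CPM in Ccne1 replicates 1 to 4 and 3191, 3464 and 3819.8 CPM in Vgll3 replicates 1 to 3. Ccne1 replicate 2 was also the library with the most counts. Without it 54 genes were called higher and 0 lower, with a median log2 change of 0.90, and without Vgll3 replicate 3 the counts were 53 and 0, with a median of 0.90.

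Markers of other cell types were measured beside the mitotic genes. The 8 endothelial markers, none of them called, summed to 137, 51.2, 83.3 and 59.9 CPM in Ccne1 replicates 1 to 4 and 34.4, 65.8 and 232 CPM in Vgll3 replicates 1 to 3, with Pecam1 the highest of them. Within each model the library highest in endothelial markers was thus also the highest in most mitotic genes, but the ranges of the models overlapped; the part of these cells in the mitotic values was not tested. The 12 macrophage markers summed to 60.02 to 81.2 CPM in the Ccne1-labelled and 13.6 to 25.8 CPM in the Vgll3-labelled libraries. Cd14 made up most of the first range and was the only one of 8 tested to be called, while Adgre1 was at most 0.23 CPM. Lymphocyte markers, led by Cd79a, summed to at most 5.96 CPM and granulocyte markers, led by Mpo, to at most 0.579 CPM. Erythroid markers, led by Hba-a1, summed to 5.73 to 10.3 CPM in the Ccne1-labelled and 0.189 to 2.25 CPM in the Vgll3-labelled libraries. Hba-a1 and Hba-a2 were called lower and Hbb-bs was not called. The 6 pericyte markers, led by Cspg4, which mesenchymal tumour cells also express, summed to 504 to 596 and 190.4 to 222 CPM, most of it Cspg4 (514 ± 42.4 and 139.6 ± 10.2 CPM, called lower). In the same list Rgs5 (0.543 ± 0.328 and 5.95 ± 1.89 CPM, edgeR-adjusted p = 0.000431) and Notch3 (4.00 ± 1.67 and 11.7 ± 5.24 CPM, adjusted p = 0.0168) were higher in the Vgll3-labelled libraries. Notch3 overlapped between the models, at 6.12 CPM in Vgll3 replicate 3 and 6.16 CPM in Ccne1 replicate 2. The other pericyte markers, Kcnj8, Abcc9 and Mcam, were not called. The part of such cells in the mitotic values was not tested. The 11 dissociation stress genes, led by Jun, summed to 9662 to 12584 and 11062 to 14184 CPM, with overlap. Of these 11, 3 were called higher and 3 lower (27.3% each), near the 25.1% and 26.8% of all tested genes. Among them were Egr1 (183 ± 12.3 and 1376 ± 53.2 CPM, edgeR-adjusted p = 8.37e-07) and Ier3 (841 ± 150.3 and 152 ± 67.7 CPM, adjusted p = 0.000526), so the sum does not show how single genes differed between the models.

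The drivers of mitotic entry were all higher. CDK1 is the kinase whose activity defines mitosis; cyclins A2, B1 and B2 activate it, and the CDC25 phosphatases remove its inhibitory phosphates. All 6 genes of this group were called higher, with log2 fold changes from 0.69 (Cdc25b) to 1.38 (Cdc25c). Ccna2, the most abundant of them in counts, was 89.6, 50.8, 74.3 and 71.3 CPM in Ccne1 replicates 1 to 4 and 121, 130.1 and 139 CPM in Vgll3 replicates 1 to 3. The lowest Vgll3-labelled library lay above the highest Ccne1-labelled one (1.82-fold, a log2 change of 0.86 with SE 0.17, adjusted p = 0.00294 by edgeR). Ccnb2 was 26.1, 12.6, 14.3 and 17.1 CPM in Ccne1 replicates 1 to 4 and 29.1, 32.7 and 41.0 CPM in Vgll3 replicates 1 to 3 (1.97-fold, a log2 change of 0.98 with SE 0.25, adjusted p = 0.0138 by edgeR), and here Ccne1 replicate 1 came within a few CPM of Vgll3 replicate 1. Cdk1 itself was 30.0, 24.1, 29.3 and 27.5 CPM in Ccne1 replicates 1 to 4 and 46.1, 47.4 and 46.2 CPM in Vgll3 replicates 1 to 3 (1.68-fold, a log2 change of 0.75 with SE 0.09, adjusted p = 0.000152 by edgeR). Ccnb1 was 22.4 ± 3.81 and 40.2 ± 2.42 CPM (mean ± SD, log2 change 0.85, adjusted p = 0.000670 by edgeR).

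The paralogous phosphatases were compared with each other within each library. Cdc25c was 7.46, 3.503, 4.95 and 3.52 CPM in Ccne1 replicates 1 to 4 and 10.2, 11.4 and 16.2 CPM in Vgll3 replicates 1 to 3 (2.61-fold, a log2 change of 1.38 with SE 0.29, adjusted p = 0.00408 by edgeR), with Vgll3 replicate 3 the highest. Cdc25b was 28.7, 18.6, 25.3 and 24.4 CPM in Ccne1 replicates 1 to 4 and 31.7, 42.5 and 42.9 CPM in Vgll3 replicates 1 to 3 (1.61-fold, a log2 change of 0.69 with SE 0.16, adjusted p = 0.00643 by edgeR). The log2 ratio of Cdc25c to Cdc25b counts within a library was −1.94, −2.40, −2.35 and −2.79 in Ccne1 replicates 1 to 4 and −1.64, −1.90 and −1.41 in Vgll3 replicates 1 to 3. The models did not overlap in this ratio, but the test over libraries did not pass (difference 0.72, exact permutation p = 0.0571, adjusted over 6 pairs 0.0857). By contrast, the ratio of Ccnb1 to Ccna2 was close to constant: its log2 value lay between −1.77 and −1.53 in all 7 libraries, with overlap (difference −0.03, exact permutation p = 0.657, adjusted over 6 pairs 0.657).

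Of the kinases that mature the centrosome and spindle, Plk1, Aurka and Nek2, all 3 were higher within a narrow range of log2 fold change, 0.81 to 0.90. Plk1, whose kinase acts from mitotic entry to cytokinesis, was 32.8, 17.0, 24.3 and 22.2 CPM in Ccne1 replicates 1 to 4 and 38.2, 46.6 and 49.9 CPM in Vgll3 replicates 1 to 3 (1.87-fold, a log2 change of 0.90 with SE 0.21, adjusted p = 0.00765 by edgeR). Nek2, a kinase that separates the duplicated centrosomes, was 21.8, 14.1, 16.7 and 16.4 CPM in Ccne1 replicates 1 to 4 and 30.0, 29.8 and 35.7 CPM in Vgll3 replicates 1 to 3 (1.85-fold, a log2 change of 0.89 with SE 0.14, adjusted p = 0.000889 by edgeR). The models did not overlap in either gene. Aurka, the spindle pole kinase, was 12.3 ± 3.18 and 21.5 ± 3.14 CPM (edgeR-adjusted p = 0.00886).

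The spindle assembly checkpoint delays anaphase until every kinetochore is attached. Of its 5 genes, 4 were higher and 1, Bub3, was not called. Mad2l1, which encodes the MAD2 protein that captures CDC20, was 23.6, 15.1, 17.8 and 18.7 CPM in Ccne1 replicates 1 to 4 and 43.6, 46.2 and 45.1 CPM in Vgll3 replicates 1 to 3 (2.40-fold, a log2 change of 1.26 with SE 0.13, adjusted p = 8.74e-05 by edgeR). Bub1b, which encodes BUBR1, another inhibitor of CDC20, was 42.1, 26.3, 38.2 and 38.5 CPM in Ccne1 replicates 1 to 4 and 71.0, 73.1 and 77.0 CPM in Vgll3 replicates 1 to 3 (2.04-fold, a log2 change of 1.03 with SE 0.14, adjusted p = 0.000441 by edgeR). Each Vgll3-labelled library lay well above each Ccne1-labelled one in both genes. The checkpoint kinases Bub1 and Ttk had log2 fold changes of 0.84 and 0.94.

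Bub3 encodes the WD-repeat partner that carries BUB1 and BUBR1 to kinetochores. It was 48.8, 43.7, 47.9 and 51.6 CPM in Ccne1 replicates 1 to 4 and 50.4, 53.5 and 52.7 CPM in Vgll3 replicates 1 to 3, with a 95% interval of the log2 fold change of −0.05 to 0.29 (edgeR-adjusted p = 0.197). Ccne1 replicate 4 lay above Vgll3 replicate 1, so the models overlapped. The log2 ratio of Bub1b to Bub3 was −0.21, −0.73, −0.33 and −0.42 in Ccne1 replicates 1 to 4 and 0.49, 0.45 and 0.55 in Vgll3 replicates 1 to 3. Bub1b counts were thus below those of Bub3 in each Ccne1-labelled library and above them in each Vgll3-labelled one (difference 0.92, exact permutation p = 0.0286, adjusted over 6 pairs 0.0857). The unadjusted value is the smallest that the 35 splits of 7 libraries into 4 and 3 allow. After adjustment over 6 pairs it could pass only if several pairs reached it. A ratio that did not pass is therefore not shown to be equal in the models.

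The chromosomal passenger complex, in which Aurora B is held at the centromere by INCENP, survivin and borealin, was higher in all 4 subunits. Cdca8, the gene of borealin, was 21.7, 12.2, 16.8 and 16.2 CPM in Ccne1 replicates 1 to 4 and 38.5, 44.1 and 47.1 CPM in Vgll3 replicates 1 to 3 (2.60-fold, a log2 change of 1.38 with SE 0.17, adjusted p = 0.000290 by edgeR). Incenp, the scaffold and the most abundant of the 4 in counts, was 33.5, 22.9, 28.4 and 29.5 CPM in Ccne1 replicates 1 to 4 and 54.9, 61.8 and 70.1 CPM in Vgll3 replicates 1 to 3 (2.18-fold, a log2 change of 1.13 with SE 0.13, adjusted p = 0.000158 by edgeR). Aurkb was 15.4 ± 3.92 and 28.4 ± 2.92 CPM (log2 change 0.89, adjusted p = 0.00464 by edgeR) and Birc5, the gene of survivin, 27.1 ± 7.38 and 45.6 ± 8.30 CPM (log2 change 0.76, adjusted p = 0.0229 by edgeR). Birc5 was the least firm of them. Leaving out Ccne1 replicate 3, Vgll3 replicate 2 or Vgll3 replicate 3 ended its call, with edgeR-adjusted p from 0.0516 to 0.0792, as did dropping the filter on low counts (0.0552).

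Genes of anaphase onset did not move as one. CDC20 activates the anaphase-promoting complex, UBE2C is its ubiquitin-conjugating enzyme, securin (Pttg1) is its substrate, and separase (Espl1) is freed when securin is destroyed. Of 6 genes in this group, with the cohesin protectors Sgo1 and Sgo2a, 4 were higher, 1 was lower and 1 was not called. Cdc20 (ENSMUSG00000006398, chromosome 4, 118432901 to 118437352) was 46.5, 24.0, 31.5 and 30.4 CPM in Ccne1 replicates 1 to 4 and 70.6, 81.8 and 77.1 CPM in Vgll3 replicates 1 to 3 (2.32-fold, a log2 change of 1.21 with SE 0.20, adjusted p = 0.00160 by edgeR). Sgo2a, a shugoshin, was 10.2, 8.35, 10.7 and 10.9 CPM in Ccne1 replicates 1 to 4 and 20.4, 23.7 and 25.8 CPM in Vgll3 replicates 1 to 3 (2.32-fold, a log2 change of 1.22 with SE 0.12, adjusted p = 7.50e-05 by edgeR); its exons overlap those of Kctd18 on the other strand. Espl1 was 22.9 ± 4.21 and 48.1 ± 7.51 CPM (log2 fold change 1.08) and Sgo1 6.41 ± 1.09 and 10.995 ± 1.17 CPM (log2 fold change 0.78). None of these 4 overlapped between the models.

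Pttg1 (ENSMUSG00000020415, chromosome 11, 43420250 to 43426251) was the only member lower in the Vgll3-labelled libraries. It was 10.01, 12.5, 10.9 and 11.1 CPM in Ccne1 replicates 1 to 4 and 9.32, 8.80 and 8.57 CPM in Vgll3 replicates 1 to 3, so each Vgll3-labelled library lay below each Ccne1-labelled one, and Ccne1 replicate 2, the lowest library for most mitotic genes, was the highest for this one. The log2 fold change was −0.32 (SE 0.11, edgeR-adjusted p = 0.0364). The call was lost when Ccne1 replicate 2, 3 or 4 or any 1 of the Vgll3 replicates was left out (edgeR-adjusted p 0.0521 to 0.0975), with no filter on low counts (0.0839) and with DESeq2 (0.0587). The median log2 fold change of tested genes on its chromosome, 11, was −0.30, and 3 of the 4 members there were called higher. The part of the chromosome in the value of Pttg1 was not tested. Ube2c was 44.2, 26.7, 33.3 and 32.6 CPM in Ccne1 replicates 1 to 4 and 40.1, 41.2 and 51.0 CPM in Vgll3 replicates 1 to 3 and was not called (95% interval −0.00418 to 0.74, edgeR-adjusted p = 0.0887). Ccne1 replicate 1 was above 2 of the 3 Vgll3-labelled libraries. Without that library Ube2c was called higher, with a log2 change of 0.52 and an edgeR-adjusted p of 0.0118.

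All 11 kinesins were higher. These motors separate the poles (Kif11, Kif15), move chromosomes (Kif18a, Kif22, Kif4), depolymerise microtubules (Kif2c), focus the poles (Kifc1) and build the central spindle and midbody (Kif14, Kif20a, Kif20b, Kif23). Their log2 fold changes ran from 0.65 for Kifc1 to 1.45 for Kif20a. At least 2-fold higher were 8 of the 11, against 9.2% of all tested genes that were called and at least 2-fold higher. Kif11, the bipolar motor Eg5, was 22.5, 12.7, 18.8 and 19.7 CPM in Ccne1 replicates 1 to 4 and 40.7, 50.5 and 48.7 CPM in Vgll3 replicates 1 to 3 (2.54-fold, a log2 change of 1.35 with SE 0.18, adjusted p = 0.000392 by edgeR). The lowest Vgll3-labelled library was well above the highest Ccne1-labelled one. Kif20a, which carries the passenger complex to the central spindle, was 44.4, 21.7, 31.1 and 32.6 CPM in Ccne1 replicates 1 to 4 and 83.5, 82.8 and 97.8 CPM in Vgll3 replicates 1 to 3 (log2 change 1.45, adjusted p = 0.000970 by edgeR). Its exons share 1271 bases with Cdc23 on the other strand, and without a stated strand setting reads there cannot be told apart. Kifc1, the smallest difference, resembles Kifc5b, also on chromosome 17 (96.8% identity over 2312 aligned bases). Kifc5b had a mean of 8.34 CPM against 30.1 CPM for Kifc1, so the estimate of Kifc1 is uncertain.

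Among the factors of the spindle and of cytokinesis, Tpx2, Nusap1 and Prc1 were higher, and Anln and Ect2 were not called. Nusap1, which bundles microtubules near chromosomes, was 8.87, 5.81, 9.23 and 7.59 CPM in Ccne1 replicates 1 to 4 and 19.8, 17.9 and 16.2 CPM in Vgll3 replicates 1 to 3 (2.29-fold, a log2 change of 1.20 with SE 0.16, adjusted p = 0.000352 by edgeR). Prc1, the bundler of the central spindle, was 47.6, 27.6, 36.5 and 38.7 CPM in Ccne1 replicates 1 to 4 and 74.6, 76.8 and 81.4 CPM in Vgll3 replicates 1 to 3 (2.07-fold, a log2 change of 1.05 with SE 0.16, adjusted p = 0.000700 by edgeR). Tpx2, which activates Aurora A, was 48.7 ± 10.2 and 88.1 ± 9.17 CPM (log2 fold change 0.86). Anln encodes anillin, the scaffold of the contractile ring, and Ect2 the exchange factor that activates RhoA there. Anln was 101, 68.7, 86.7 and 92.6 CPM in Ccne1 replicates 1 to 4 and 93.2, 98.2 and 117 CPM in Vgll3 replicates 1 to 3 (95% interval −0.06 to 0.54, edgeR-adjusted p = 0.161). Ect2 was 42.2, 29.2, 36.2 and 37.7 CPM in Ccne1 replicates 1 to 4 and 31.5, 32.1 and 48.0 CPM in Vgll3 replicates 1 to 3 (95% interval −0.37 to 0.44, edgeR-adjusted p = 0.877). In both genes Ccne1 replicate 1 lay above Vgll3 replicates 1 and 2. The log2 fold change of Ect2 turned to −0.06 without Ccne1 replicate 2 and −0.18 without Vgll3 replicate 3, and was not called in either case.

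**Figure D3:**
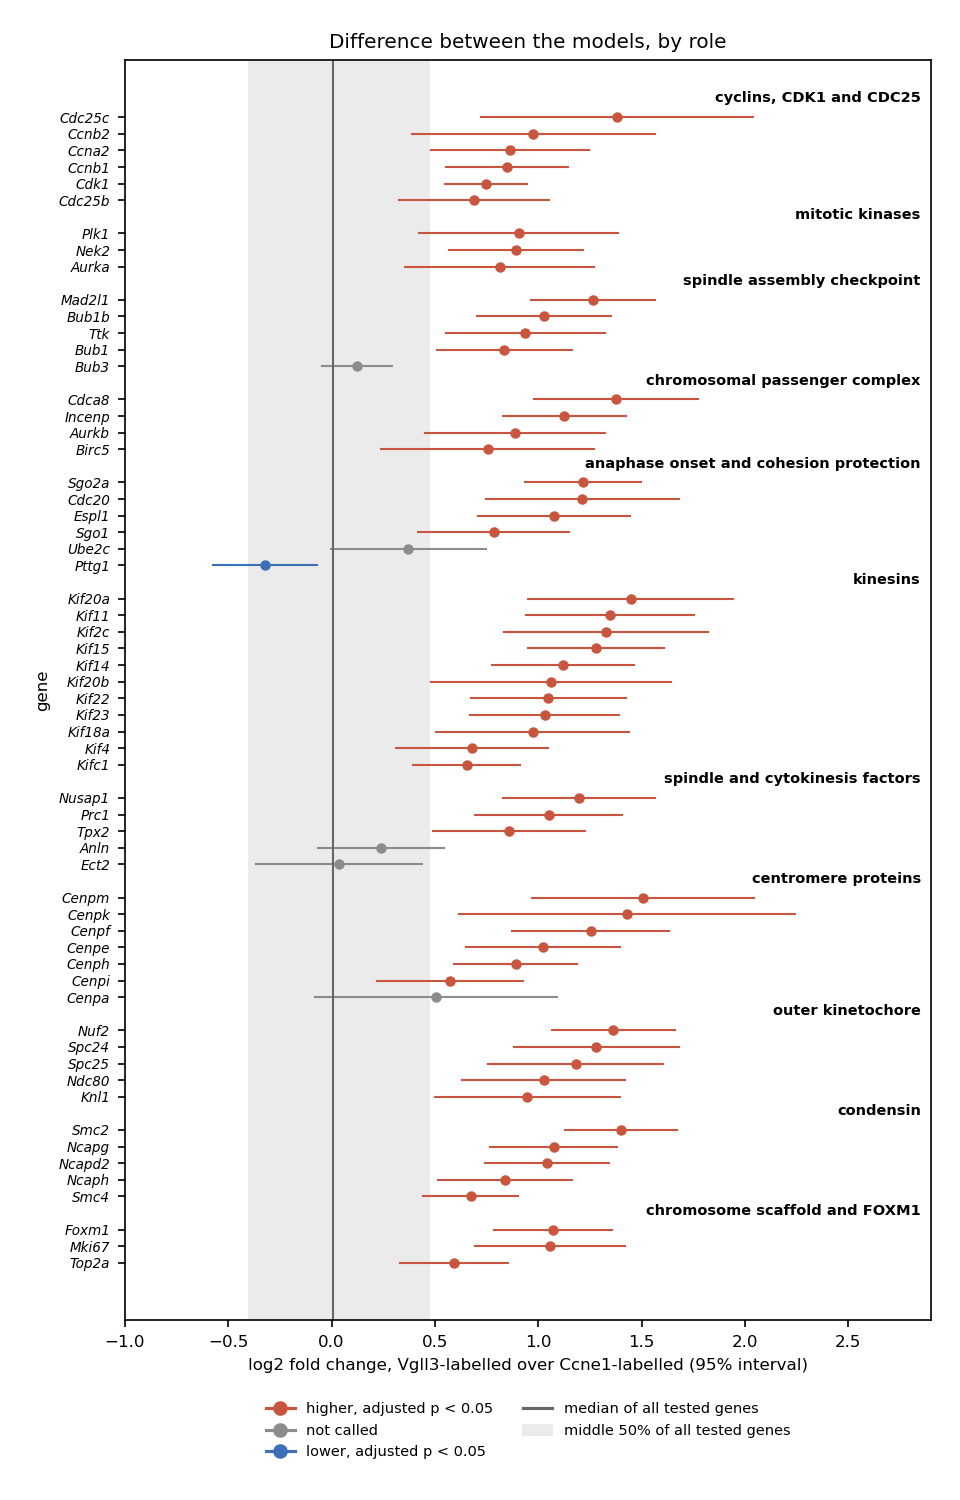
Log2 fold change of each mitotic gene, Vgll3-labelled over Ccne1-labelled (x axis), with its 95% interval from the edgeR fit, grouped by role and ordered by size within a group. Red genes were called higher, blue lower and grey not called; the vertical line and band are the median and quartile range of all 13740 tested genes. The 54 red points lie between 0.57 (Cenpi) and 1.51 (Cenpm), to the right of the band, and 6 genes are not red: Bub3, Ube2c, Pttg1, Anln, Ect2 and Cenpa.

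Centromere proteins include the histone variant CENP-A, which marks the centromere, the inner kinetochore proteins CENP-H, -I, -K and -M built on it, and the large outer proteins CENP-E and CENP-F. Of these 7 genes 6 were higher. Cenpm had the largest log2 fold change of the 60 genes. It was 5.23, 3.29, 5.20 and 2.98 CPM in Ccne1 replicates 1 to 4 and 9.37, 12.3 and 13.9 CPM in Vgll3 replicates 1 to 3 (2.84-fold, a log2 change of 1.51 with SE 0.24, adjusted p = 0.000791 by edgeR). Cenpk, the lowest gene of the 60 in CPM, was 1.32, 0.654, 0.929 and 0.581 CPM in Ccne1 replicates 1 to 4 and 1.97, 2.87 and 2.14 CPM in Vgll3 replicates 1 to 3 (2.69-fold, a log2 change of 1.43 with SE 0.36, adjusted p = 0.00911 by edgeR). It shares exon bases with Ppwd1 on the other strand, which had a mean of 10.4 CPM. Cenpe, a kinesin-like motor of the kinetochore and the most abundant of the group in counts, was 77.8, 49.7, 69.4 and 68.7 CPM in Ccne1 replicates 1 to 4 and 115, 131 and 159 CPM in Vgll3 replicates 1 to 3 (2.03-fold, a log2 change of 1.02 with SE 0.16, adjusted p = 0.00104 by edgeR). None of these 3 overlapped between the models. Cenpi had the smallest log2 fold change among the genes called higher, 0.57 (edgeR-adjusted p = 0.0136), and its call ended without Vgll3 replicate 2 (0.0541).

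Cenpa itself was not called. It was 43.8, 22.6, 30.7 and 30.3 CPM in Ccne1 replicates 1 to 4 and 33.9, 44.1 and 57.4 CPM in Vgll3 replicates 1 to 3 (95% interval of the log2 fold change −0.08 to 1.09, edgeR-adjusted p = 0.128). Ccne1 replicate 1 lay above Vgll3 replicate 1 and close to replicate 2. Cenpa was called higher without Ccne1 replicate 1 (log2 change 0.70, edgeR-adjusted p = 0.0317) and with DESeq2 (0.52, adjusted p = 0.0481). The interval reaches past a 2-fold difference, the size seen for Cenpe.

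The outer kinetochore, which grips the microtubule, was higher in all 5 genes, with log2 fold changes from 0.95 (Knl1) to 1.36 (Nuf2). Nuf2, a subunit of the NDC80 complex, was 12.8, 8.60, 9.85 and 11.2 CPM in Ccne1 replicates 1 to 4 and 26.6, 27.5 and 27.6 CPM in Vgll3 replicates 1 to 3 (2.57-fold, a log2 change of 1.36 with SE 0.13, adjusted p = 5.52e-05 by edgeR). Spc24, another subunit, was 14.8, 9.08, 11.5 and 11.04 CPM in Ccne1 replicates 1 to 4 and 22.9, 28.5 and 32.9 CPM in Vgll3 replicates 1 to 3 (2.43-fold, a log2 change of 1.28 with SE 0.18, adjusted p = 0.000401 by edgeR). No library of one model reached the range of the other. Ndc80 and Spc25 were 11.3 ± 2.74 and 23.0 ± 1.59 CPM and 4.54 ± 1.03 and 10.3 ± 0.164 CPM (log2 fold changes 1.03 and 1.18). The log2 ratio of Spc25 to Ndc80 within a library was −1.70, −1.39, −0.85 and −1.33 in Ccne1 replicates 1 to 4 and −1.10, −1.25 and −1.13 in Vgll3 replicates 1 to 3. It varied more among the Ccne1-labelled libraries than between the models (difference 0.16, exact permutation p = 0.514, adjusted over 6 pairs 0.617).

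Condensin folds the chromosome; SMC2 and SMC4 are its shared ATPases, and NCAPD2, NCAPG and NCAPH make condensin I. All 5 genes were higher. Smc2 (ENSMUSG00000028312, chromosome 4, 52439243 to 52488260) was 59.3, 43.6, 58.0 and 63.1 CPM in Ccne1 replicates 1 to 4 and 146, 156 and 140.5 CPM in Vgll3 replicates 1 to 3 (2.64-fold, a log2 change of 1.40 with SE 0.12, adjusted p = 3.18e-05 by edgeR). Its partner Smc4 was 190.2, 145, 162 and 177 CPM in Ccne1 replicates 1 to 4 and 245, 284 and 276 CPM in Vgll3 replicates 1 to 3 (1.59-fold, a log2 change of 0.67 with SE 0.10, adjusted p = 0.000650 by edgeR). The difference in size of change between the 2 subunits of this dimer was not tested; Smc2 lies on chromosome 4, whose tested genes had a median log2 change of 0.44. Ncapg was 19.9, 13.7, 17.8 and 20.8 CPM in Ccne1 replicates 1 to 4 and 34.8, 40.2 and 38.7 CPM in Vgll3 replicates 1 to 3 (2.10-fold, a log2 change of 1.07 with SE 0.14, adjusted p = 0.000242 by edgeR). Its condensin II counterpart Ncapg2 rose from 31.5 ± 3.96 to 80.8 ± 6.79 CPM (log2 change 1.36, adjusted p = 2.43e-05 by edgeR). The log2 ratio of Ncapg to Ncapg2 was −0.82, −0.94, −0.78 and −0.71 in Ccne1 replicates 1 to 4 and −1.18, −1.14 and −0.96 in Vgll3 replicates 1 to 3, without overlap between the models but not past the test (difference −0.28, exact permutation p = 0.0571, adjusted over 6 pairs 0.0857).

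Mki67, Top2a and Foxm1 complete the list. Mki67 encodes Ki-67, the coat protein of mitotic chromosomes by which pathologists count dividing cells. It was 195, 121, 156 and 159.8 CPM in Ccne1 replicates 1 to 4 and 299, 301 and 385 CPM in Vgll3 replicates 1 to 3 (2.08-fold, a log2 change of 1.06 with SE 0.16, adjusted p = 0.000757 by edgeR). Foxm1, the transcription factor of late mitotic genes, was 69.6, 47.6, 59.4 and 55.8 CPM in Ccne1 replicates 1 to 4 and 109.8, 121 and 135 CPM in Vgll3 replicates 1 to 3 (2.10-fold, a log2 change of 1.07 with SE 0.13, adjusted p = 0.000167 by edgeR). Top2a, the topoisomerase of dividing cells, was 174, 123, 144 and 168 CPM in Ccne1 replicates 1 to 4 and 235, 227 and 227 CPM in Vgll3 replicates 1 to 3 (1.51-fold, a log2 change of 0.59 with SE 0.12, adjusted p = 0.00252 by edgeR). The models did not overlap in any of the 3. Top2b, the form present in resting cells too, was 200.2 ± 15.002 and 222 ± 43.8 CPM and was not called (log2 change 0.15, adjusted p = 0.359 by edgeR), although it was without Vgll3 replicate 3 (0.31, adjusted p = 0.0112). The log2 ratio of Top2a to Top2b was −0.15, −0.62, −0.44 and −0.40 in Ccne1 replicates 1 to 4 and −0.09, −0.11 and 0.40 in Vgll3 replicates 1 to 3 (difference 0.47, exact permutation p = 0.0571, adjusted over 6 pairs 0.0857). Vgll3 replicate 3 was the highest library in this ratio and the lowest in Top2b. Per kilobase of annotated exon, Smc4 had the highest level of the 60 genes in the Vgll3-labelled libraries (51.5 CPM per kilobase), followed by Cdc20 (41.0) and Mki67 (32.7), and Cenpk the lowest (0.445).

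**Figure D4:**
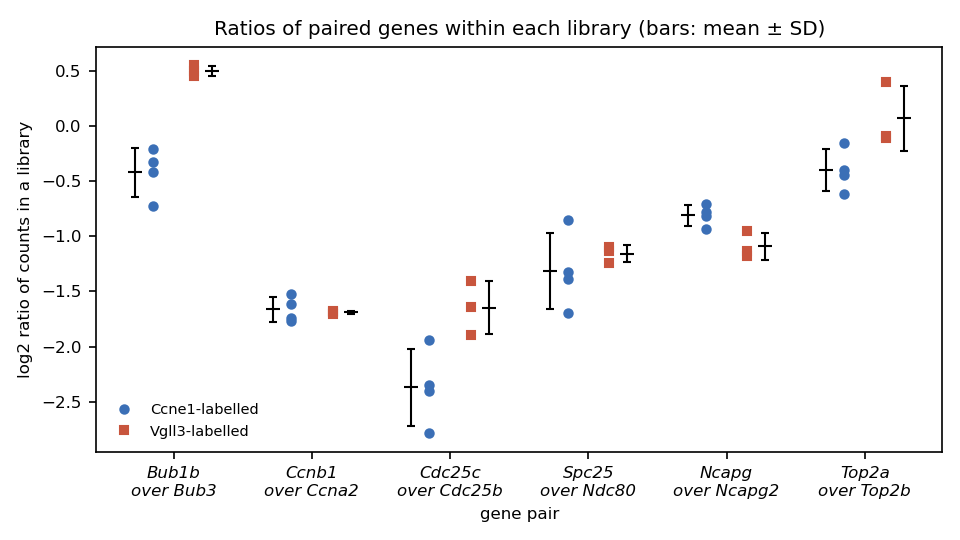
Log2 ratio of counts of paired genes within each library (y axis), for 6 pairs (x axis), with 1 point for each of 4 Ccne1-labelled (blue circles) and 3 Vgll3-labelled (red squares) libraries and black bars for mean ± SD. The models separate most widely for Bub1b over Bub3, from a mean of −0.42 to 0.50, and overlap for Ccnb1 over Ccna2 and Spc25 over Ndc80.

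The genes around these members were compared in the same fit. Of 59 other mitotic genes, none of them among the 60, 46 were higher (78.0%, against 25.1% of all tested genes). Of the same 59, 1 was lower (1.69%, against 26.8%) and 12 were not called, with a median log2 fold change of 0.78. The 2 most raised were Ska1, of the SKA complex that couples kinetochores to microtubules (2.52 ± 0.563 and 9.52 ± 1.42 CPM, log2 change 1.93, adjusted p = 8.85e-05 by edgeR), and Fbxo5, the inhibitor of the anaphase-promoting complex EMI1 (4.85 ± 1.35 and 18.0 ± 2.16 CPM, log2 fold change 1.90, adjusted p = 8.31e-05). Mis12, of the kinetochore's MIS12 complex, was lower (27.7 ± 2.00 and 20.5 ± 2.63 CPM, log2 fold change −0.44, adjusted p = 0.00789). Like Pttg1, it lies on chromosome 11, where 3 of the 4 members (Aurkb, Birc5 and Top2a) were called higher. The part of the chromosome in these values was not tested. Of 34 G1/S and replication genes, 25 were higher (73.5%) and 0 lower, with a median of 0.59. They were led by Ccne2 (1.64), which encodes cyclin E2, and Rrm2 (1.52), a subunit of ribonucleotide reductase.

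The anaphase-promoting complex, cohesin and phosphatase lists had medians nearer 0. Their counts are set beside the 25.1% of all tested genes called higher and the 26.8% called lower. Of 16 genes of the anaphase-promoting complex, 6 were higher (37.5%) and 2 lower (12.5%), with a median log2 fold change of 0.12. Cdc23 (0.86) and Anapc15 (0.62) were the most raised, and Cdc27 (−0.55) and Anapc2 (−0.29) were lower; Cdc23 overlaps Kif20a. Of 12 cohesin genes, 4 were higher (33.3%) and 0 lower, with a median of 0.13. Esco2, the S-phase acetylase of cohesin, led (4.70 ± 1.44 and 12.8 ± 1.95 CPM, 1.46, edgeR-adjusted p = 0.000834), ahead of the ring subunit Rad21 (0.35). Of 16 genes of the phosphatases that end mitosis, 2 were higher (12.5%) and 5 lower (31.2%, near the share of all genes), with a median of −0.10: Ppp2r5c (0.43) and Ppp1ca (0.35) on one side, Ppp2ca (−0.63) and Ppp2r1a (−0.44) on the other. The count of lower genes was 3 with DESeq2-type size factors or with library totals alone, and 2 without Ccne1 replicate 2 or 3.

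Of 15 genes of the MuvB, DREAM and NF-Y complexes that read CHR and CCAAT elements, 7 were higher (46.7%, against 25.1% of all tested genes) and 5 lower (33.3%, against 26.8%), with a median log2 fold change of −0.06. Mybl2, the gene of the activator B-MYB, rose from 14.1 ± 4.33 to 28.3 ± 4.79 CPM (log2 change 1.01, adjusted p = 0.00825 by edgeR). Nfyc, an NF-Y subunit, was 34.0 ± 0.956 and 65.6 ± 3.35 CPM (0.95, adjusted p = 1.32e-05). Rbl2, the gene of p130, the pocket protein of the repressive DREAM complex, fell from 80.6 ± 3.75 to 45.4 ± 2.19 CPM (−0.83, adjusted p = 3.10e-05), and Lin37, a MuvB subunit, was also lower (−0.72, adjusted p = 0.0136). Of 14 genes that brake the G2 phase or proliferation, 3 were higher (21.4%) and 4 lower (28.6%), both near the shares of all tested genes. Wee1, the kinase that inhibits CDK1, fell from 34.6 ± 3.54 to 17.7 ± 5.73 CPM (−0.97, adjusted p = 0.00435) and Btg1 was lower too (−0.94). Btg2 (1.92) and the checkpoint kinase gene Chek1 (0.98) were higher. The median of the 14 was −0.07.

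**Figure D5:**
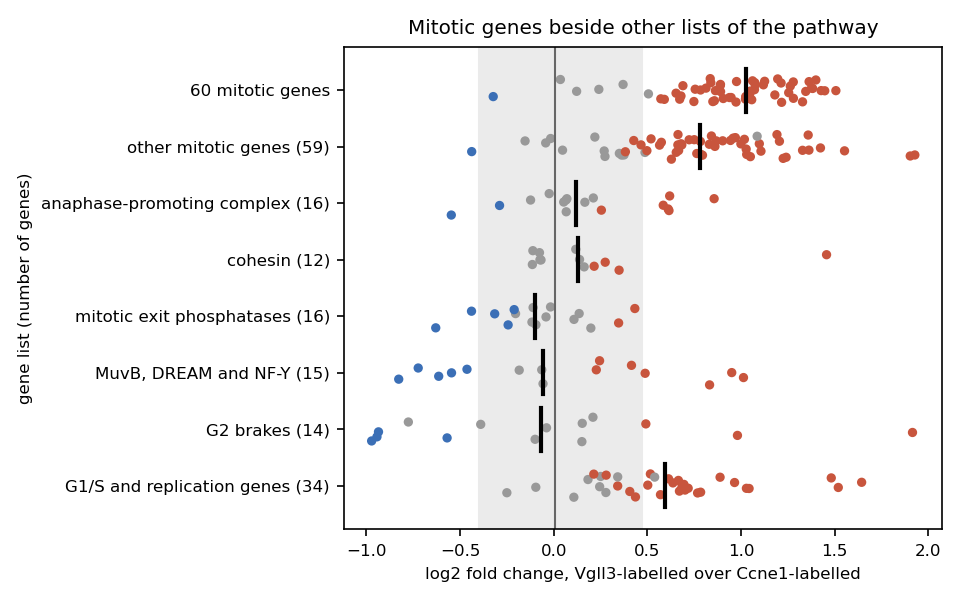
Log2 fold change of each gene (points, x axis), Vgll3-labelled over Ccne1-labelled, for the 60 mitotic genes and 7 other lists, coloured red where called higher, blue where lower and grey where not called; black bars are medians, and the grey line and band are the median and quartile range of all tested genes. The mitotic list has its median at 1.02, the other mitotic genes at 0.78 and the replication genes at 0.59, while the remaining 5 lists have medians between −0.10 and 0.13.

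The 60 genes lie on 16 chromosomes, and on each of them the median log2 fold change of the members was above that of all tested genes of the chromosome. Of the 60, 59 were above the median of their own chromosome, the exception being Pttg1, and the members' median was 0.96 after that chromosome median was subtracted from each gene. The largest chromosome medians among those with members were on chromosomes 4 (0.44, with Cdc20, Cdca8, Kif2c and Smc2) and 6 (0.39, with Mad2l1, Ncapd2 and Foxm1). Similar genes elsewhere in the genome that are also rows of the counts table matched 12 of the 60. In 2 of them, Kifc1 and Ndc80, the similar gene reached 10% of the member's level. Exons of 15 members overlap those of another gene in the counts table. In 12 of them that gene, on the opposite strand, reached 10% of the member's level: Ccna2, Cdc20, Cdc25b, Cdca8, Cenpk, Kif18a, Kif20a, Kif4, Ncapg, Nusap1, Prc1 and Sgo2a. Without a stated strand setting the values of these 12 are less certain. The overlap was widest for Sgo2a (2455 bases), Kif20a, Ncapg with Lcorl (944 bases), Prc1 with Rccd1 (911 bases) and Kif4 with Pdzd11 (832 bases).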

How the data were processed

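Gene-level counts of 7 polyA RNA-seq libraries were compared between 4 Ccne1-labelled and 3 Vgll3-labelled libraries, grouped by their titles. The authors deposited estimated counts, 1 row per Ensembl gene, without scaling. Salmon and build mm10 are named in the submitters' processing notes. Annotation, strand setting and the step from transcripts to genes: not given in the sources used here. All values were whole (0 needed rounding). Symbols, coordinates and exon lengths came from GENCODE M21 on GRCm38, the same build.

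The test was edgeR's robust quasi-likelihood F test (version 4.0.16, R 4.3.3) after filterByExpr and TMM scaling, with 1 term for the model and Benjamini-Hochberg adjustment over 13740 genes at 0.05. SE was the absolute log2 change divided by the root of F. CPM were counts over TMM-scaled library sizes, so 3 counts stood for 0.0577 to 0.136 CPM. Log2 ratios of paired genes, with 0.5 counts added, were compared by exact permutation of the absolute difference in means over 35 splits, two-sided, with a smallest p of 0.0286. Alternatives were other scalings, no filter, DESeq2 1.42.0, limma-voom (limma 3.58.1), the replicate number as a term, and leaving out each library; for the ratios a second way of forming a two-sided p was added after seeing the data. The test was tried on simulated counts with known changes before use. It recovered 18.1% of 1.5-fold, 77.0% of 2-fold and 100% of 4-fold changes, and 8.09% of its 136 calls were false. Only 200 genes were changed there, and all genes were given the same relative spread. These shares therefore need not hold for the members, and a member that was not called may still differ.

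The members and lists were chosen with earlier results of these data known. Named genes were, for each role, the 2 called members with the largest log2 fold change and the most abundant one, all members not called or called against the majority, the paired genes, the 2 most raised and 2 most lowered called genes of each other list, and the most abundant gene of each marker list. Cdk1, Aurka, Bub1, Ttk, Aurkb, Birc5, Espl1, Sgo1, Tpx2, Kifc1, Cenpi and Knl1 were added after their values were seen. Outside the rule for marker lists, Vim, Col1a2, Col3a1, Thy1, Krt5, Adgre1, Rgs5, Notch3, Egr1 and Ier3 are also named. So are Hba-a2, Hbb-bs, Kcnj8, Abcc9 and Mcam.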

Additional observations from a re-analysis of the deposited data

Results flagged for a closer look

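Among the 4 Ccne1-labelled libraries, 78 values were examined for a library far from the other 3, and 3 stood out; chance gives about 1 in 20. Sgo1 was 4.79 CPM in Ccne1 replicate 2, below 6.78 to 7.14 CPM in the others, the same library that was lowest for 56 of the 60 genes. Vgll3 was 37.9 CPM in Ccne1 replicate 1, against 54.3 to 56.2 CPM. The pericyte markers summed to 504 CPM in Ccne1 replicate 3, against 581 to 596 CPM.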

How the results depend on the processing

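The count of members higher in the Vgll3-labelled libraries was 54 and lay between 49 (with the replicate block) and 56 in all alternatives that kept the 60 genes; it was 46 of the 52 members with at least 10 CPM on average. Of the 54, 49 were called in all 13 alternatives, and none had a log2 fold change moved by over 1.5 times; the others were Ccnb2, Cdc25b, Birc5, Cenpi and Cenpk. Without 1 library the count was 52 to 56 and the median log2 fold change 0.90 to 1.12. The count of members lower was 1 and fell to 0 with DESeq2, without a low-count filter and with the replicate block, and was 0 to 1 without 1 library. Phosphatases lower went from 5 to 3 with DESeq2-type size factors, library totals alone, no low-count filter and the replicate block, and to 2 to 4 without 1 library. With the replicate block other mitotic genes lower went from 1 to 0, anaphase-promoting complex genes lower from 2 to 1, cohesin genes higher from 4 to 2, phosphatases higher from 2 to 1, and MuvB, DREAM and NF-Y genes higher from 7 to 4; it moved no other of these counts by over 1.5 times. Under the block 2287 genes of all tested were called higher and 2554 lower, and Ccnb2, Cdc25b, Birc5, Pttg1, Cenpi, Cenpk, Mis12, Anapc2, Ppp1ca, Lin37, Mybl2, Btg1, Oip5 and Cit were not called. Deviations of same-numbered libraries correlated at −0.141, −0.159, −0.0981, and no library correlated best with its own number, so the numbers were not taken to pair the libraries. The cause of these shifts was not tested. Without 1 library, other mitotic genes lower were 1 to 2, cohesin genes lower 0 to 1 and replication genes lower 0 to 1. The log2 ratio difference of Ccnb1 over Ccna2 was −0.0648 to 0.0168 without 1 library, changing sign without Ccne1 replicate 2, and that of Ect2 changed sign in the 2 cases given above (−0.18 to 0.14). Of the members, only Cenpk was under 3 CPM in all libraries.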

Other observations

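Genes that act beside the members that were not called could be compared, chosen after their values were seen. CENP-A is loaded onto the centromere by its chaperone HJURP. Hjurp was 81.6, 73.8, 74.7 and 80.4 CPM in Ccne1 replicates 1 to 4 and 131, 145 and 171 CPM in Vgll3 replicates 1 to 3 (1.92-fold, a log2 change of 0.94 with SE 0.10, adjusted p = 6.93e-05 by edgeR), without overlap between the models, while Cenpa was not called. Oip5, whose protein is also needed for that loading, was 2.76 ± 0.428 and 4.27 ± 0.737 CPM (0.63, adjusted p = 0.0343), a call lost when Ccne1 replicate 2, 3 or 4 or Vgll3 replicate 2 was left out (0.0730 to 0.141) and with no filter on low counts (0.0698).

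Beside Anln and Ect2, which were not called, 5 other cytokinesis genes are given, picked after their values were seen. Arhgap11a, the gene of a RhoA GAP, was 45.6 ± 9.64 and 58.0 ± 1.16 CPM and was not called (log2 change 0.35, adjusted p = 0.0788 by edgeR). Racgap1, the partner of ECT2 at the central spindle, was 98.5, 62.6, 75.3 and 77.4 CPM in Ccne1 replicates 1 to 4 and 127, 160.2 and 169 CPM in Vgll3 replicates 1 to 3 (1.94-fold, a log2 change of 0.96 with SE 0.16, adjusted p = 0.00115 by edgeR). Cit, the citron kinase gene, changed by 1.05 on the log2 scale (adjusted p = 0.00560 by edgeR), Cep55 by 0.86 (adjusted p = 0.00139) and Iqgap3 by 0.87 (adjusted p = 0.0100). Whether these genes differ from Anln and Ect2 in their change was not tested.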
